A study of Homo sapiens with 7 samples.

Results

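The USP genes encode the ubiquitin-specific proteases, the most numerous family of human deubiquitinases. The family was taken as every gene symbol made of USP, a number and at most 1 further letter, without USP9Y, which gave 50 of the 20072 symbols in the table. Of these, 47 averaged 1 RPKM or more in some parameter and were tested, and 43 did so in all 3 parameters and are called fully expressed below. USP26, USP29 and USP51 were not tested.

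The cells were HCT116, an established human colorectal carcinoma line, in log-phase growth in serum-free medium supplemented with epidermal growth factor, insulin and transferrin. Transcription rate (TR) was measured by GRO-seq, in which isolated nuclei extend their engaged transcripts with a bromouridine-labelled nucleotide and the labelled RNA is captured and sequenced (n = 2 libraries). mRNA abundance (RA) was measured by RNA-seq of purified mRNA (n = 3), and translation activity (TA) by sequencing mRNA from polysome fractions of a sucrose gradient after the cells were held in cycloheximide, which stops ribosomes on the mRNA (n = 2). All 3 groups came from this 1 unmodified line in 1 growth state, and the cycloheximide step belonged to the TA libraries alone.

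The values are RPKM, reads scaled by exon length and by library size, counted over exons only in all 3 parameters. Library sizes worked out from the values were 3391897 and 5629982 reads for TR, 20299018 to 22532134 for RA, and 30805391 and 22421062 for TA, so that low TR values carry the largest counting error. Reads carried no molecular identifiers, and this precision covers counting error only. An RPKM value is a share of its library, so fewer transcripts of a gene cannot be told apart from more RNA of other genes, nor fewer expressing cells from less RNA per cell. All 7 of 7 colon epithelial marker genes reached 1 RPKM in all 3 parameters, while none of 7 markers of other cell types did and 5 of them stayed under 1 RPKM throughout.

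USP enzymes remove ubiquitin from proteins or trim ubiquitin chains, and so can spare a protein from the proteasome or change its activity or its place in the cell. Most use a catalytic cysteine that lies in a conserved stretch called the Cys box, together with a more distant histidine. Some need a partner protein, such as WDR48, the activator of USP1, USP12 and USP46, or the SAGA adaptor proteins that switch on USP22.

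The Cys box shows how far the catalytic sites of close relatives differ in sequence. It was found in the coding sequence of 49 of the 50 genes, by a pattern that was widened after a first search had missed several of them. USP39, a spliceosome protein known to lack the catalytic cysteine, had none. The cysteine codon was TGC in 29 genes and TGT in 20. The sequences below are 30 bases of the GENCODE 44 transcript on GRCh37, 5′ to 3′, with the cysteine codon in capitals, for the 6 groups of close, fully expressed relatives with the largest index differences, which are compared further on.
USP22: aaccttgggaacacaTGCttcatgaactgc
USP27X: aatcttggcaacacgTGCtttatgaactgc
USP4: aacctgggaaacaccTGCttcatgaactcc
USP11: aatctgggcaacacgTGCttcatgaactcg
USP15: aacttgggaaatacgTGTttcatgaactca
USP16: aatttgggaaacacaTGTttcttcaatgca
USP45: aatttaggaaatactTGCttttttaatgca
USP7: aatcagggagcgactTGTtacatgaacagc
USP47: aaccaagcaatgactTGCtatttgaatagc
USP9X: aatgccggtgctactTGTtacatgaattct
USP24: aatggtggtgcaactTGTtatatgaatgca
USP34: aaccttggagctactTGTtacttagcttct
USP31: aaccacggcaacacgTGCttcatgaacgcc
USP43: aaccacggcaacaccTGTttcatgaacgcg

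These genes lie at the following places on GRCh37. USP22 is on chromosome 17, 20902909 to 20947073, minus strand, and its intron-poor relative USP27X on chromosome X, 49644087 to 49647162, plus strand. USP4 is on chromosome 3, 49314577 to 49378145, minus strand, USP11 on chromosome X, 47092265 to 47107727, plus strand, and USP15 on chromosome 12, 62654119 to 62811211, plus strand. USP16 is on chromosome 21, 30396950 to 30426809, plus strand, and USP45 on chromosome 6, 99880201 to 99969604, minus strand. USP7 is on chromosome 16, 8985954 to 9069185, minus strand, and USP47 on chromosome 11, 11862970 to 11983434, plus strand. USP9X is on chromosome X, 40944698 to 41095832, plus strand, USP24 on chromosome 1, 55532032 to 55681051, minus strand, and USP34 on chromosome 2, 61414598 to 61698222, minus strand. USP31 is on chromosome 16, 23072727 to 23160773, minus strand, and USP43 on chromosome 17, 9548015 to 9633004, plus strand. All of the printed stretches are coding exon sequence. USP31 and USP43 differed at 3 of the 30 bases, USP22 and USP27X at 4, USP4 and USP11 at 4, USP4 and USP15 at 5, USP11 and USP15 at 6, USP16 and USP45 at 6, USP9X and USP24 at 6, USP7 and USP47 at 9, USP9X and USP34 at 9, and USP24 and USP34 at 12.

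Most USP genes were transcribed at moderate rates, and they spread apart in mRNA abundance and again in translation activity. The median member stood at 12.98 RPKM in TR, 10.3 in RA and 6.38 in TA, beside 14.2, 8.94 and 6.34 over the 14305 genes tested. Over the 43 fully expressed members, the SD of the log2 levels was 0.82 and 0.83 in the 2 TR libraries, 1.19 to 1.28 in the 3 RA libraries, and 1.59 and 1.55 in the 2 TA libraries. These ranges did not overlap. The same order held over 10823 genes that were fully expressed and above 0 in every library, at 1.28 and 1.32 in TR, 1.68 to 1.72 in RA and 1.98 and 1.97 in TA.

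**Figure D1:**
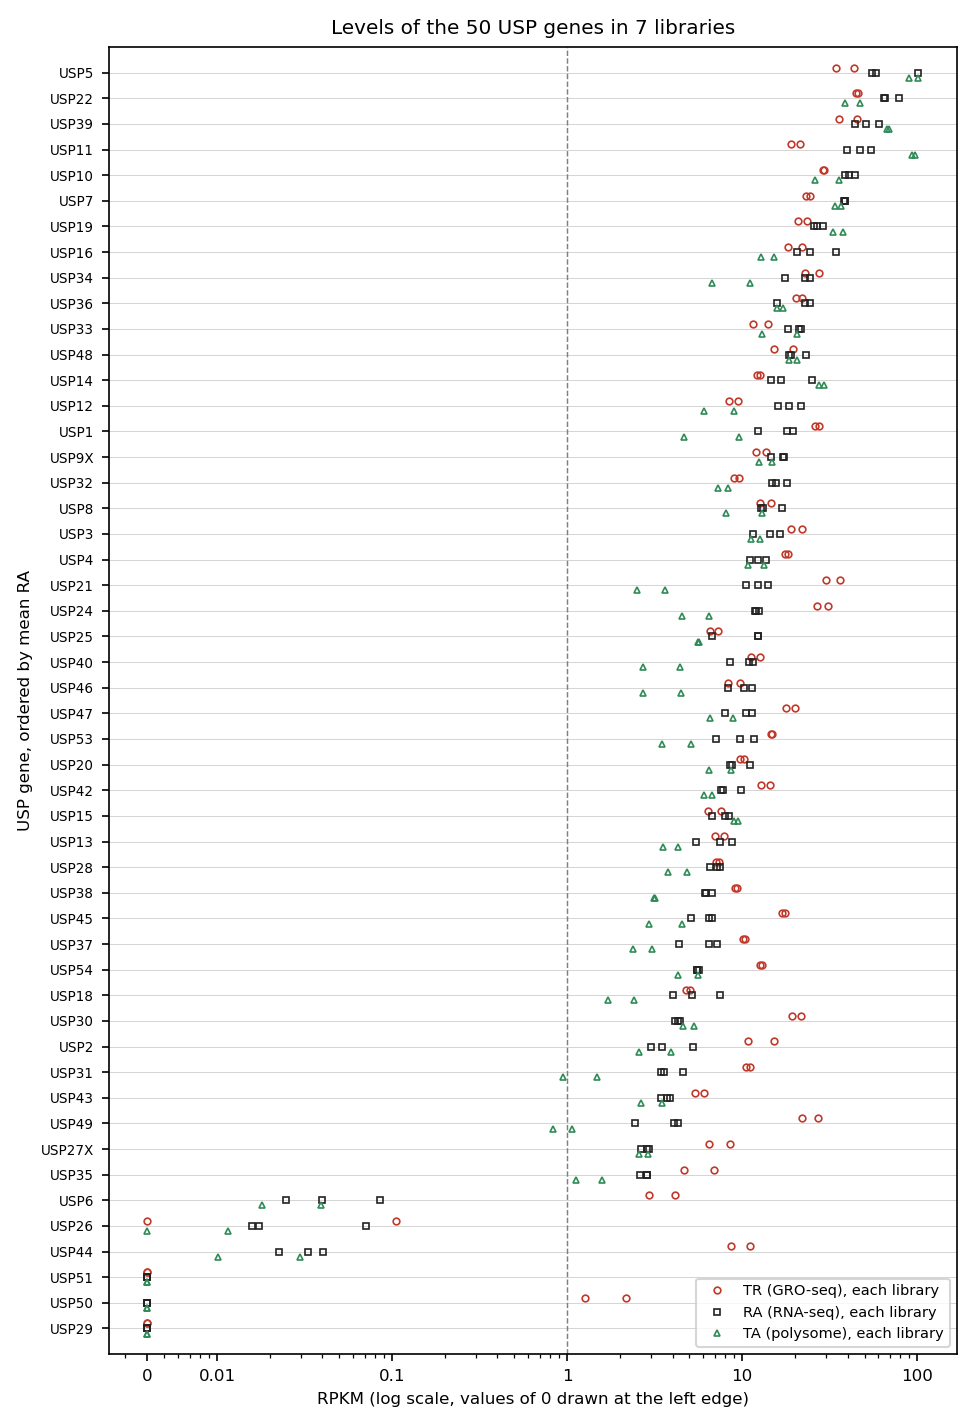
RPKM (log scale) of the 50 USP genes in each of the 7 libraries, ordered by mean RA, with circles for TR, squares for RA, triangles for TA and a dashed line at 1 RPKM. TR values of most members lie between about 5 and 45.7 RPKM, while RA and TA spread more widely, and USP44, USP6 and USP50 have TR without matching RA or TA.

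The highest members differed between the 3 parameters. USP22, the histone deubiquitinase of the SAGA complex, led TR with a mean of 45.1 ± 0.901 RPKM (SD, n = 2), followed by USP39 at 40.4 ± 6.57 and USP5 at 38.8 ± 6.54, and the libraries of USP39 overlapped those of both others. In RA the same 3 genes led, with USP5 at 71.7 ± 25.95 (SD, n = 3), USP22 at 69.6 ± 7.98 and USP39 at 51.8 ± 8.08. USP5 and USP22 did not differ there beyond their spread. In TA the order was USP11 at 95.3 ± 2.10 (SD, n = 2), USP5 at 94.96 ± 8.05 and USP39 at 68.3 ± 1.12. USP11 and USP5 overlapped in TA, and USP39 lay below both in each library.

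The stability index, log2(RA/TR), sets the amount of an mRNA against the rate at which it was made. As deposited, RA was higher than TR for 8 of the 47 members tested (17.0%, against 19.2% of all genes tested), and lower for 20 (42.6%, against 48.0%), by limma on log2(RPKM + 0.1) with p-values adjusted over all 14305 genes. Of these 20, USP44, USP6 and USP50 reached 1 RPKM in TR alone, so their lower RA followed from the filter, and no test of them is given below. Among the 43 fully expressed members, fitted with the 10825 fully expressed genes alone, 7 were higher (16.3%, against 24.3% of those genes) and 16 lower (37.2%, against 33.8%). The share of lower members thus lay below the share of all genes with 1 filter and above it with the other. The remaining 19 of the 47 did not pass the threshold. The median index was -0.21 over the members and -0.58 over all genes, and -0.07 and -0.17 over the fully expressed members and genes. Between single libraries, the members' median ran from -0.41 to -0.19 over the 6 pairs.

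Because the 3 parameters have different distributions, the zero of the index depends on scaling. Setting the libraries to equal medians over the genes tested raised every stability index by 0.67, and the split of calls went from 8 higher and 20 lower to 21 higher and 11 lower, with 35.4% and 33.7% of all genes called. All 8 members with higher RA were called on both scales, namely USP11, USP12, USP5, USP32, USP7, USP33, USP22 and USP10. Of the 20 with lower RA, 11 were called on both, the 3 named above and USP49, USP30, USP2, USP45, USP31, USP21, USP27X and USP24. The sign turned for 4 of the 20, USP3, USP4, USP38 and USP43. Called higher with equal medians alone were USP8, USP9X, USP14, USP15, USP16, USP18, USP19, USP25, USP28, USP36, USP39, USP46 and USP48.

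Some calls also depended on single libraries. Without GRO-seq replicate 1 or without GRO-seq replicate 2, which leaves 1 TR library, the higher calls of USP5, USP10, USP22 and USP33 were lost. Fewer of all genes were called there too, in both directions. The call of USP10 was also lost without any 1 RNA-seq library, and that of USP33 without RNA-seq replicate 1 or RNA-seq replicate 2. Called higher whichever 1 library was left out were USP7, USP11, USP12 and USP32, and called lower in the same way were 9 members, USP2, USP21, USP24, USP27X, USP30, USP31, USP45, USP49 and USP54, beside the 3 with TR alone.

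The translation index, log2(TA/RA), sets polysome-associated mRNA against all mRNA. As deposited, TA was higher than RA for 1 of 47 members, USP11 (2.13%, against 6.66% of all genes), and lower for 20 (42.6%, against 29.2%), while 26 did not pass the threshold. Among the fully expressed members alone 1 was higher (2.33%, against 8.87%) and 20 lower (46.5%, against 29.8%). The median index was -0.38 over the members and -0.37 over all genes, and -0.43 and -0.28 over the fully expressed members and genes. Equal library medians raised every translation index by 0.50, and the split of calls went from 1 higher and 20 lower to 7 higher and 6 lower, with 19.0% and 9.81% of all genes called. Called lower on both scales were USP21, USP49, USP31, USP40, USP46 and USP12, and none of the 20 changed sign. Called higher with equal medians alone were USP5, USP14, USP15, USP19, USP30 and USP39. The count of lower calls was 11 without RNA-seq replicate 3 (23.4%, against 19.6% of all genes). Without any 1 GRO-seq or polysome library, which leaves 1 library in that parameter, fewer members and fewer of all genes were called lower. The count of higher calls was 3 without RNA-seq replicate 1 (6.38%, against 7.2% of all genes). USP11 was called higher whichever 1 library was left out, and 10 members were called lower in the same way, USP12, USP21, USP24, USP31, USP32, USP34, USP38, USP40, USP46 and USP49.

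Across the whole path from TR to TA, 6 of 47 members were higher in TA (12.8%, against 17.0% of all genes) and 28 lower (59.6%, against 57.5%). Among the fully expressed members alone 6 were higher (14.0%, against 21.6%) and 24 lower (55.8%, against 45.6%). With equal library medians, which raised this index by 1.17, the split became 19 higher and 11 lower, with 38.0% and 35.3% of all genes called. Called higher on both scales were USP11, USP5, USP14, USP39, USP19 and USP7, and USP11, USP14 and USP19 kept this call whichever 1 library was left out. The call was lost for USP39 without GRO-seq replicate 1, for USP5 without GRO-seq replicate 2 and for USP7 without polysome replicate 1. This comparison shares its libraries with both indices and is not independent of them.

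**Figure D2:**
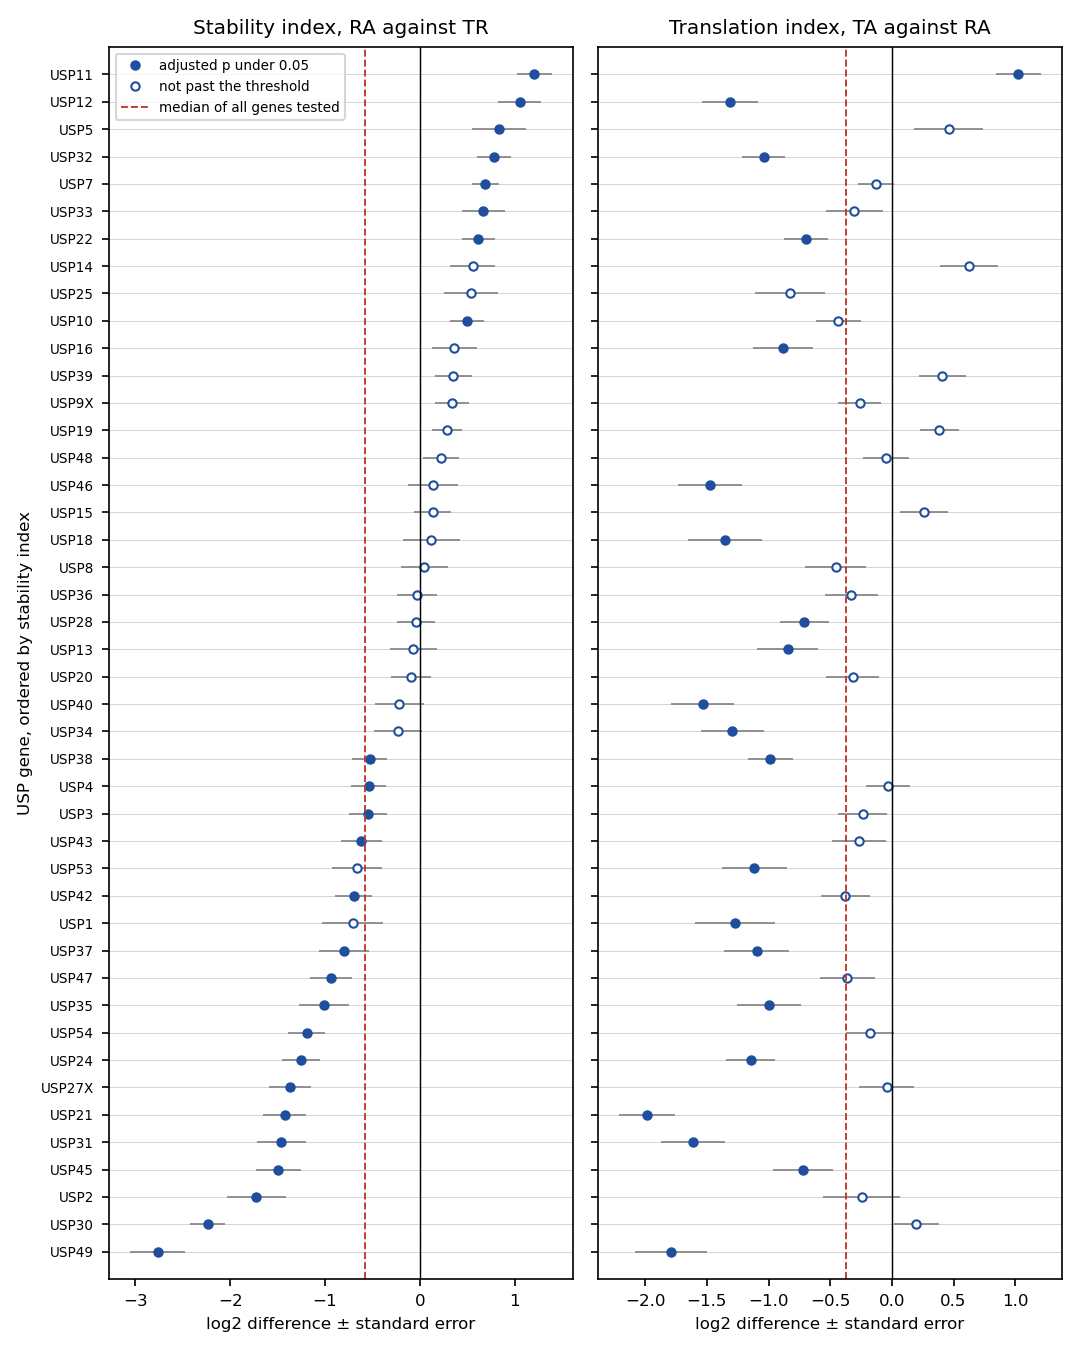
Stability index (left) and translation index (right) of 44 USP genes as deposited, as log2 differences with standard errors and ordered by stability index. Filled points passed the limma threshold, the dashed line is the median of all genes tested, and USP6, USP44 and USP50, which reached 1 RPKM in TR alone, are left out. USP11 is at the top of both panels, while USP12, second in stability index, is among the lowest in translation index.

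Replicates are separate libraries of 1 line, which the paper calls biological replicates. Whether they come from separate cultures is not given in the labels, so p-values measure the spread between these libraries, which may be technical. In the account by role that follows, a member is called higher or lower by the test on the deposited scale, and counts are to be read against the shares of all genes, 19.2% higher and 48.0% lower in the stability index and 6.66% higher and 29.2% lower in the translation index. Counts with equal medians are to be read against 35.4% and 33.7%, and 19.0% and 9.81%. Calls gained with equal library medians are those listed above, and calls lost are named beside the member.

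Of the 3 genes for ubiquitin chain recycling and the proteasome, USP5 and USP14 were higher in TA than in TR and USP13 was lower, and the sign turned for USP13 with equal medians. USP5, which takes apart free ubiquitin chains, measured 43.4 and 34.2 RPKM in TR, 102, 55.3 and 58.1 in RA and 89.3 and 101 in TA. RA and TA lay above TR in every library, and RNA-seq replicate 1 was far above the other 2 RA libraries. Its stability index was 0.84 ± 0.28 (SE, adjusted p = 0.029), and 1.51 (adjusted p = 0.0013) with equal medians. The call was lost without GRO-seq replicate 1 (adjusted p = 0.083) and without GRO-seq replicate 2 (adjusted p = 0.21), and without RNA-seq replicate 1 the index was 0.56. The translation index was 0.46 ± 0.28 (SE, adjusted p = 0.23) as deposited and 0.96 (adjusted p = 0.033) with equal medians.

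USP14, a deubiquitinase bound to the proteasome, measured 12.2 and 12.7 RPKM in TR, 25.1, 14.6 and 16.7 in RA and 29.3 and 27.3 in TA. TA was above RA in each library, but the RA libraries spread widely. Its translation index was 0.63 ± 0.24 (SE, adjusted p = 0.072), short of the threshold as deposited, and 1.13 (adjusted p = 0.011) with equal medians, while TA against TR reached 1.18 ± 0.26 (SE, adjusted p = 0.0034). The stability index was 0.56 ± 0.24 (SE, adjusted p = 0.068) as deposited and 1.23 (adjusted p = 0.0016) with equal medians. USP13, the close relative of USP5, had lower TA than RA, with a translation index of -0.85 ± 0.25 (SE, adjusted p = 0.032) that was not called with equal medians. Another annotated gene on the same strand overlaps 30.6% of the USP13 exons, and its part in that value was not tested.

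Of the 11 genes acting on histones and transcription, 10 were tested, and 2 had higher and 6 lower RA than TR, USP44 among the latter. In the translation index 4 were lower and none higher, also at an unadjusted limma p under 0.05. With equal medians these counts became 4 higher and 4 lower, and 2 lower and none higher. USP22 measured 45.7 and 44.5 RPKM in TR, 78.8, 64.6 and 65.4 in RA and 47.4 and 38.6 in TA. Its RA libraries lay above TR and TA lay close to TR, giving a stability index of 0.62 ± 0.18 (SE, adjusted p = 0.014) and a translation index of -0.70 ± 0.18 (SE, adjusted p = 0.019). The stability call was lost without GRO-seq replicate 1 or GRO-seq replicate 2. The translation call was lost without RNA-seq replicate 3 or polysome replicate 2 and with equal medians. An antisense gene and another transcript overlap 17.3% of its exons.

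USP7, which deubiquitinates the p53 ligase MDM2, measured 24.5 and 23.1 RPKM in TR, 38.7, 37.96 and 38.7 in RA and 36.5 and 33.9 in TA. The 3 RA libraries were nearly equal and all above TR, with a stability index of 0.69 ± 0.14 (SE, adjusted p = 0.0032). TA overlapped none of the RA libraries but was only slightly lower, and the translation index of -0.13 ± 0.14 (SE, adjusted p = 0.53) was not called and turned to 0.37 (adjusted p = 0.1) with equal medians.

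USP21, a deubiquitinase of histone H2A and of signalling proteins, had the lowest translation index among the fully expressed members. It measured 30.3 and 35.99 RPKM in TR, 10.5, 12.3 and 14.1 in RA and 2.50 and 3.64 in TA. Every step was a decrease, with no overlap between parameters. The stability index was -1.43 ± 0.23 (SE, adjusted p = 0.00072) and the translation index -1.98 ± 0.23 (SE, adjusted p = 0.0026), and both calls were kept with equal medians. From TR to TA the difference was -3.41 ± 0.25 (SE, adjusted p = 6.9e-06).

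USP16, a histone H2A deubiquitinase, measured 18.4 and 21.9 RPKM in TR, 20.5, 34.5 and 24.4 in RA and 15.3 and 12.8 in TA. TR and RA overlapped, and TA lay below both, with a translation index of -0.88 ± 0.24 (SE, adjusted p = 0.025) that was not called with equal medians and was lost without either GRO-seq library, without either polysome library or without RNA-seq replicate 3. Its stability index was 0.36 ± 0.24 (SE, adjusted p = 0.21) as deposited and 1.04 (adjusted p = 0.0063) with equal medians. USP27X, a relative of USP22 that can use the same SAGA adaptors, measured 6.44 and 8.56 RPKM in TR, 2.94, 2.86 and 2.63 in RA and 2.89 and 2.56 in TA. Its RA lay below TR in each library while RA and TA overlapped, giving a stability index of -1.37 ± 0.22 (SE, adjusted p = 0.00076), called on both scales.

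USP44, USP49 and USP3 form a subfamily of histone deubiquitinases. USP44, which also acts in the mitotic checkpoint, measured 8.67 and 11.1 RPKM in TR, 0.022, 0.04 and 0.033 in RA and 0.03 and 0.01 in TA. The TR values rest on 129 and 275 reads, and the RA values on 2, 4 and 3 reads. Because it entered the tests through TR alone, no index is given. USP44 lies on chromosome 12, 95910336 to 95945252, minus strand, and no other annotated gene shared its 50-base sequences. What this TR signal without matching mRNA rests on was not tested.

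USP49, which acts on histone H2B, measured 22.1 and 26.97 RPKM in TR, 2.45, 4.06 and 4.31 in RA and 1.06 and 0.834 in TA. Both steps were decreases with no overlap, with a stability index of -2.77 ± 0.29 (SE, adjusted p = 6.9e-05) and a translation index of -1.79 ± 0.29 (SE, adjusted p = 0.0047). Other annotated genes overlap 63.9% of its exons, so these reads may not all be from USP49, and their part was not tested. USP3 had a stability index of -0.55 ± 0.20 (SE, adjusted p = 0.038), which turned positive with equal medians, and its antisense gene overlaps 18.3% of the exons. USP36, a nucleolar member, passed the threshold in neither index, USP42 was lower in RA with -0.70 ± 0.20 as deposited and stood at -0.026 (adjusted p = 0.91) with equal medians, and USP51 was listed at 0 in all 7 libraries.

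Among the 7 genes of DNA repair and replication, 1 was called higher and 3 lower in the stability index, and 1 higher and 4 lower in the translation index, which became 3 higher and 1 lower and 1 higher and none lower with equal medians. USP11, which binds BRCA2, measured 21.3 and 19.1 RPKM in TR, 54.7, 39.7 and 46.97 in RA and 93.8 and 96.8 in TA. Each parameter was above the one before it in every library. The stability index was 1.21 ± 0.18 (SE, adjusted p = 0.00052) and the translation index 1.03 ± 0.18 (SE, adjusted p = 0.006), and from TR to TA the difference was 2.23 ± 0.20 (SE, adjusted p = 2e-05). On the deposited scale USP11 was the 1 member called higher in both indices. Both calls were kept with equal medians, where USP5, USP14, USP15, USP19 and USP39 were called higher in both as well. It lies on chromosome X, 47092265 to 47107727, plus strand, has 21 exons, and shared no 50-base sequence with another gene.

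USP1, which deubiquitinates FANCD2 and PCNA, measured 26.1 and 27.4 RPKM in TR, 19.6, 12.3 and 18.1 in RA and 4.64 and 9.62 in TA. TA was below RA and RA below TR in each library, but the TA libraries stood well apart from each other, and the translation index was -1.27 ± 0.33 (SE, adjusted p = 0.02), and -0.77 (adjusted p = 0.092) with equal medians. The stability index of -0.71 ± 0.33 (SE, adjusted p = 0.086) did not pass. USP45, which acts on the repair nuclease subunit ERCC1, measured 17.5 and 16.9 RPKM in TR, 5.13, 6.73 and 6.44 in RA and 4.51 and 2.93 in TA. RA was far below TR, with a stability index of -1.49 ± 0.24 (SE, adjusted p = 0.00079), called on both scales. Its translation index of -0.72 ± 0.24 lay just inside the threshold as deposited and was not called with equal medians.

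USP47, which acts on DNA polymerase beta, measured 17.8 and 20.1 RPKM in TR, 7.99, 11.3 and 10.5 in RA and 8.87 and 6.58 in TA. RA and TA overlapped, and both lay below TR, with a stability index of -0.94 ± 0.22 (SE, adjusted p = 0.0063) that was not called with equal medians. DKK3, on the other strand, overlaps 56.8% of the USP47 exons, and VIL1 likewise 38.0% of those of USP37. The sources do not state that counting used strand. USP37, which opposes the degradation of cyclin A, was lower in both indices, at -0.80 ± 0.26 and -1.10 ± 0.26, without a call for either with equal medians. USP28, a stabiliser of MYC, was lower only in the translation index as deposited, at -0.71 ± 0.20, and USP48 passed in neither.

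Of the 7 genes of endosomes, endoplasmic reticulum, mitochondria and secretory membranes, 2 had higher and 2 lower RA than TR, USP6 among the latter, and 4 higher and 2 lower with equal medians. USP30, which sits on the outer mitochondrial membrane and opposes mitophagy, measured 19.4 and 21.8 RPKM in TR, 4.39, 4.15 and 4.31 in RA and 5.29 and 4.59 in TA. TR was several times as high as RA, TA was slightly above RA, and no parameter overlapped another. The stability index was -2.24 ± 0.18 (SE, adjusted p = 1.6e-05), the lowest among the fully expressed members. The translation index was 0.20 ± 0.18 (SE, adjusted p = 0.43) as deposited and 0.70 (adjusted p = 0.029) with equal medians.

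USP32, a Golgi-associated member, measured 9.57 and 9.03 RPKM in TR, 14.8, 15.6 and 18.03 in RA and 8.28 and 7.27 in TA. RA lay above both TR and TA, which did not reach it in any library, with a stability index of 0.78 ± 0.18 (SE, adjusted p = 0.0047) and a translation index of -1.04 ± 0.18 (SE, adjusted p = 0.0053). The first call was kept with equal medians and the second was not. Of its 50-base sequences, 29.5% occur in other genes, among them USP32 pseudogenes.

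USP6, a hominoid gene that arose in part from USP32, measured 2.93 and 4.16 RPKM in TR, 0.04, 0.085 and 0.025 in RA and 0.039 and 0.018 in TA. The TR values rest on 98 and 231 reads and the RA values on 8, 19 and 5 reads, and no index is given for the same reason as for USP44. USP6 shared 18.6% of its 50-base sequences with other genes, chiefly USP32, whose Cys box differed from that of USP6 at 1 of 30 bases. USP33, a partner of the VHL ligase, had higher RA than TR, with 0.67 ± 0.23. USP20, its relative, and USP8, which acts on the EGF receptor in endosomes, passed in neither index. USP19, anchored in the endoplasmic reticulum, was higher in TA than in TR, with 0.67 ± 0.17 (SE, adjusted p = 0.0076).

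Of the 7 genes of signalling and ligase control, 4 were lower and none higher in the translation index, the latter also at an unadjusted limma p under 0.05. With equal medians USP12 and USP46 alone were called lower. USP12, activated by WDR48, measured 9.49 and 8.36 RPKM in TR, 16.1, 18.5 and 21.5 in RA and 6.08 and 9.003 in TA. RA was above TR and TA in each library, and TR and TA overlapped. The stability index was 1.05 ± 0.23 (SE, adjusted p = 0.0037) and the translation index -1.32 ± 0.23 (SE, adjusted p = 0.0055), and both calls were kept with equal medians. USP46, the nearest relative of USP12 and likewise activated by WDR48, measured 8.25 and 9.71 RPKM in TR, 10.2, 8.25 and 11.4 in RA and 2.73 and 4.44 in TA. TR and RA overlapped and TA lay below both, with a translation index of -1.48 ± 0.26 (SE, adjusted p = 0.006), called on both scales. Its stability index was 0.14 ± 0.26 (SE, adjusted p = 0.66) as deposited and 0.81 (adjusted p = 0.018) with equal medians.

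USP2, a deubiquitinase of cyclin D1, measured 10.8 and 15.2 RPKM in TR, 3.02, 5.21 and 3.49 in RA and 3.94 and 2.59 in TA. RA and TA overlapped far below TR, with a stability index of -1.73 ± 0.31 (SE, adjusted p = 0.0015). USP2-AS1 overlaps 30.3% of its exons from the other strand. USP10, a binding partner of the stress granule protein G3BP1, was higher in RA, with 0.50 ± 0.18 (SE, adjusted p = 0.039), called on both scales. The call of USP10 was lost without any 1 GRO-seq or RNA-seq library, and in the fit of fully expressed genes alone.

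USP9X, a very large enzyme with roles in polarity and cell survival, measured 13.8 and 11.9 RPKM in TR, 17.1, 14.6 and 17.3 in RA and 14.7 and 12.5 in TA. The TA libraries overlapped both TR and RA, and it passed in neither index as deposited. With equal medians the stability index was 1.01 (adjusted p = 0.0012). USP24 measured 26.8 and 30.9 RPKM in TR, 12.4, 11.9 and 11.8 in RA and 6.43 and 4.51 in TA, and here each parameter lay below the one before it. Its stability index was -1.25 ± 0.20 (SE, adjusted p = 0.00071), called on both scales, and its translation index -1.14 ± 0.20 (SE, adjusted p = 0.0056), called as deposited only. USP34, which acts on axin in Wnt signalling, measured 27.5 and 22.7 RPKM in TR, 17.5, 24.3 and 22.9 in RA and 11.1 and 6.75 in TA. TR and RA overlapped and TA lay below both, with a translation index of -1.29 ± 0.25 (SE, adjusted p = 0.0081) that was not called with equal medians. AHSA2P, on the other strand, overlaps 14.5% of the USP34 exons.

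Of the 3 genes of splicing and mRNA processing, none was called in the translation index as deposited, also at an unadjusted limma p under 0.05. USP39, a member of the spliceosome, measured 35.8 and 45.1 RPKM in TR, 60.2, 44.1 and 51.1 in RA and 67.5 and 69.1 in TA. TA lay above RA in every library, while TR and RA overlapped, and the translation index was 0.41 ± 0.19 (SE, adjusted p = 0.13) as deposited and 0.91 (adjusted p = 0.011) with equal medians. USP15 measured 7.60 and 6.39 RPKM in TR, 6.74, 7.94 and 8.40 in RA and 9.43 and 8.96 in TA, with TA above the other parameters by a small margin. Its translation index was 0.26 ± 0.19 (SE, adjusted p = 0.33) as deposited and 0.76 (adjusted p = 0.026) with equal medians. In the stability index both were called with equal medians alone, USP39 at 1.03 (adjusted p = 0.0014) and USP15 at 0.81 (adjusted p = 0.0071). USP4, like USP15 a partner of the splicing factor SART3, measured 17.6 and 18.4 RPKM in TR, 11.1, 12.3 and 13.7 in RA and 10.9 and 13.4 in TA. Its stability index of -0.54 ± 0.18 (SE, adjusted p = 0.028) turned to 0.13 (adjusted p = 0.53) with equal medians.

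USP18, which removes the ubiquitin-like protein ISG15, and USP25 stand for the interferon response. Neither was called in the stability index as deposited, also at an unadjusted limma p under 0.05. USP18 had a translation index of -1.35 ± 0.30 (SE, adjusted p = 0.012), not called with equal medians, and shares 27.0% of its 50-base sequences with other genes, chiefly USP41. USP25, whose Cys box differed from that of USP28 at 1 of 30 bases, had a translation index of -0.83 ± 0.28 (SE, adjusted p = 0.054).

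The germ line genes were at or near 0 in RA and TA. USP29 was listed at 0 in all libraries, and USP26 reached at most 0.11 RPKM. USP50, next to USP8, measured 1.27 and 2.17 RPKM in TR, 0, 0 and 0 in RA and 0 and 0 in TA. The TR values rest on 6 and 17 reads, and no read fell on USP50 in RA or TA. No index is given for the same reason as for USP44. USP8 overlaps 20.4% of the USP50 exons, and its part in the TR reads was not tested.

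The 7 less described members, USP31, USP35, USP38, USP40, USP43, USP53 and USP54, had no higher call in either index, also at an unadjusted limma p under 0.05. RA was lower than TR for 5 of them and TA lower than RA for 5, but with equal medians USP31 alone was lower in the stability index, and USP31 and USP40 in the translation index. USP31 measured 11.1 and 10.5 RPKM in TR, 3.58, 3.44 and 4.61 in RA and 0.947 and 1.48 in TA. Each parameter lay below the one before it in every library, with a stability index of -1.46 ± 0.26 (SE, adjusted p = 0.0013) and a translation index of -1.61 ± 0.26 (SE, adjusted p = 0.0045), both kept with equal medians. Other transcripts overlap 25.4% of its exons.

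USP40 measured 11.3 and 12.6 RPKM in TR, 11.6, 10.96 and 8.51 in RA and 4.42 and 2.72 in TA. TR and RA overlapped and TA lay below both, with a translation index of -1.53 ± 0.26 (SE, adjusted p = 0.005), called on both scales. USP43 measured 5.38 and 6.01 RPKM in TR, 3.73, 3.86 and 3.46 in RA and 3.48 and 2.66 in TA, and its stability index of -0.62 ± 0.22 (SE, adjusted p = 0.034) turned to 0.06 (adjusted p = 0.84) with equal medians. The translation index was -0.99 ± 0.18 for USP38, -0.999 ± 0.26 for USP35 and -1.11 ± 0.26 for USP53, each called as deposited only, while USP54 was called only in the stability index, at -1.19 ± 0.20 and as deposited only.

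Ratios between close relatives within 1 library do not depend on library scaling. USP11 over USP4 was near equality in TR, at log2 ratios of 0.28 and 0.05, but 2.30, 1.69 and 1.78 in RA and 3.11 and 2.85 in TA. The 3 ranges did not overlap. USP11 over USP15 likewise went from 1.49 and 1.58 in TR to 3.02, 2.32 and 2.48 in RA and 3.31 and 3.43 in TA.

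USP22 over USP27X was 2.83 and 2.38 in TR, 4.75, 4.50 and 4.63 in RA and 4.04 and 3.91 in TA, so the ratio was highest in RA. USP16 over USP45 was 0.07 and 0.37 in TR, 1.998, 2.36 and 1.92 in RA and 1.76 and 2.12 in TA, with RA and TA overlapping. USP7 over USP47 was 0.46 and 0.20 in TR, 2.28, 1.75 and 1.88 in RA and 2.04 and 2.37 in TA. In these pairs TR lay apart from RA and TA.

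The large enzymes exchanged order. USP9X over USP24 was -0.96 and -1.37 in TR, 0.46, 0.29 and 0.55 in RA and 1.19 and 1.47 in TA, so that USP24 led in TR and USP9X in RA and TA. USP9X over USP34 was -0.997 and -0.93 in TR, -0.04, -0.73 and -0.40 in RA and 0.41 and 0.89 in TA, and the order turned only between RA and TA. USP31 over USP43 ran the other way, from 1.04 and 0.80 in TR through -0.06, -0.17 and 0.41 in RA to -1.88 and -0.84 in TA. These sets were chosen for the size of their index differences, and no test was made of them.

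**Figure D3:**
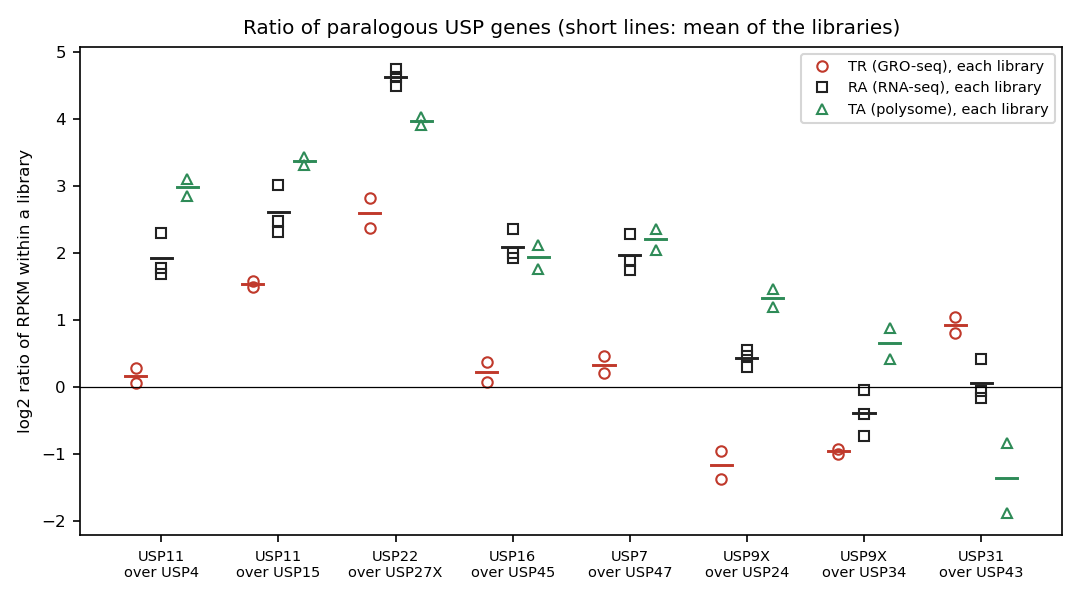
log2 ratio of RPKM between related USP genes within each library, with 1 point per library, short lines at the means, and circles, squares and triangles for TR, RA and TA. USP11 over USP4 climbs from near 0 in TR to about 3 in TA, USP9X over USP24 crosses 0 between TR and RA, and USP31 over USP43 goes down.

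The USP genes are long. The 47 members tested had a median exon length of 5220 bases behind their RPKM values, beside 3026 for all genes tested. Their median coding length was 2889 bases against 1359, with 19 exons against 9, and untranslated regions made up 38.9% of the transcript against 49.5%. Over all genes the translation index went with exon length, at a Spearman rho of -0.26 over 10825 fully expressed genes, and it was -0.27 over the 43 members. With the length of the 5′ untranslated region, rho was -0.37 over 10637 fully expressed genes with annotated coding sequence, and -0.30 over the members. With coding length it was -0.04 and -0.08. These are descriptions across genes, which share libraries. In the longest quartile of all genes, above 4684 bases, the median translation index was -0.63, and the 27 members in it had a median of -0.70. The 15 members between 3026 and 4684 bases had a median of -0.30, beside -0.34 for all genes of that length. The 4 members between 1910 and 3026 bases had a median of -0.70, beside -0.23 for all genes of that length. They lay on both sides of it, USP21 at -1.98 and USP18 at -1.35 below, USP27X at -0.04 and USP39 at 0.41 above.

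**Figure D4:**
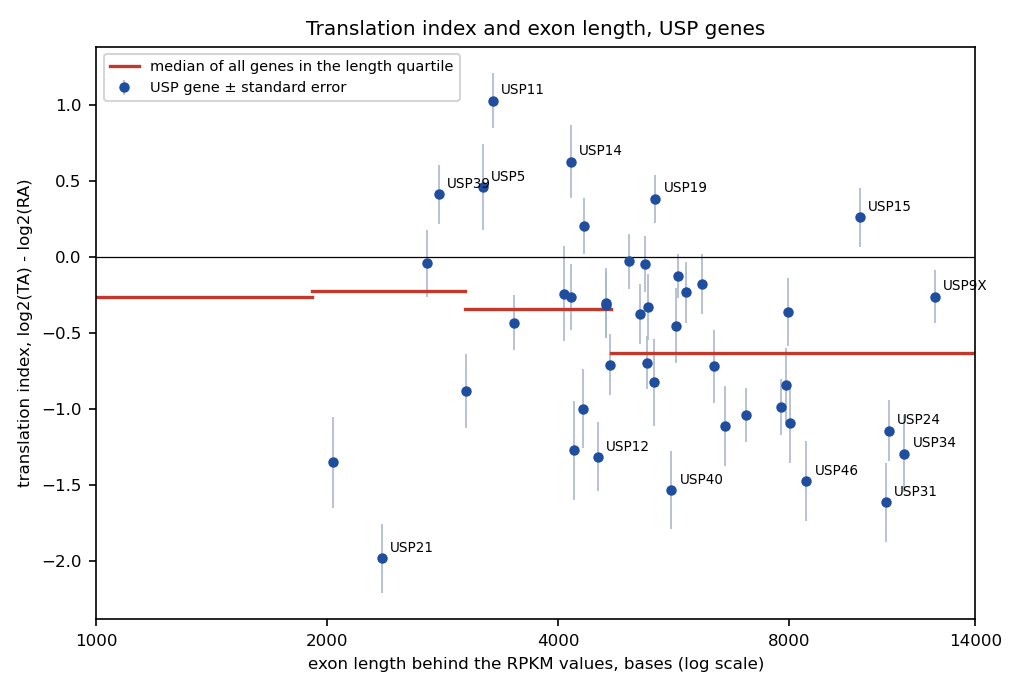
Translation index (log2, as deposited, with standard errors) against the exon length behind the RPKM values (bases, log scale) for the 43 fully expressed USP genes. Horizontal lines give the median of all genes tested in each length quartile, from -0.26 in the shortest to -0.63 in the longest, and members such as USP11 and USP21 lie far above and below the line of their length.

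The cofactors of USP enzymes were measured beside them, from a list of 12. In the stability index 4 were higher and 3 lower, and in the translation index 1 was higher and 2 lower, which became 7 and none, and 6 and 2, with equal medians. Of all genes, 19.2% were higher and 48.0% lower in the stability index, and 6.66% and 29.2% in the translation index. With equal medians the shares of all genes were 35.4% and 33.7%, and 19.0% and 9.81%. WDR48, the activator of USP1, USP12 and USP46, stayed within 13.7 to 17.4 RPKM in all 7 libraries and was called in neither index as deposited and higher in both with equal medians. The lower translation indices belonged to 2 of the adaptors of USP22, ATXN7L3 at -1.18 ± 0.15 (SE, adjusted p = 0.0032) and ATXN7 at -1.48 ± 0.21 (SE, adjusted p = 0.0035). ENY2, another adaptor of USP22 in the list, was not called, at -0.14 ± 0.21 (SE, adjusted p = 0.63). ISG15, the substrate partner of USP18, had the highest, at 0.95 ± 0.30 (SE, adjusted p = 0.04). G3BP1, the partner of USP10, had the highest stability index of the list, at 1.30 ± 0.25 (SE, adjusted p = 0.0019), and WDR20, which joins WDR48 on USP12 and USP46, the lowest, at -1.09 ± 0.22 (SE, adjusted p = 0.0026).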

How the data were processed

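The authors aligned reads with TopHat (default settings) to hg19, used HTSeq-count over exons, and deposited the counts as RPKM for each gene and library. The counting mode, strand setting and gene annotation are not given in the sources used here, and the library kit is not described as marking strand. Exon lengths and library sizes were recovered from the steps between low RPKM values, and 100% of values above 0 came out as whole reads within 0.001. Between 99.7% and 99.8% of each library lay on listed genes.

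The members and lists were chosen with earlier results of these data known. Tests covered the 14305 genes that averaged 1 RPKM or more in some parameter. They used limma 3.58.1 (R 4.3.3, eBayes with trend) on a single fit of log2(RPKM + 0.1) over the 7 libraries, with Benjamini-Hochberg adjustment and a threshold of 0.05. Index values are fitted on that scale, which understates changes of low genes. The steps were tested on simulated data. The centred alternative set each library's median over the tested genes to 1 value. An exact permutation test of a single gene could not go below 0.2 for 2 against 3 libraries, or 0.333 for 2 against 2, and was not used. Members described in full were, among the 43 fully expressed members, the 4 highest and 4 lowest in each index, the 3 highest in each parameter, and the 6 sets of relatives with the largest index differences. Some further members are given with values so that every member is accounted for. In the other lists the highest and lowest gene is named. The genes WDR48, ATXN7L3 and ENY2 were named after their values were seen.

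Overlaps, sequences and transcript features came from GENCODE 44 on GRCh37. All 50 members matched by symbol, and of all 20072 symbols 18776 matched directly and 910 by an older symbol. Python 3.11.15, numpy 2.4.6, pandas 2.3.3, scipy 1.17.1 and matplotlib 3.10.9 were used for the rest.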

Additional observations from a re-analysis of the deposited data

How the results depend on the processing

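Counts and medians over the members are given for each alternative where they changed, and turned signs with values for the members described in full. Counts of calls are not given for single fits that left 1 library in a parameter. For these values the cause was not tested, except that equal library medians add a constant to each index. Alternatives were a pseudocount of 0.01 or 1, no filter on low values, fully expressed genes alone, equal library medians, the replicate block, and each library left out in turn. Added after the data were seen were a crossed block and the medians without members whose exons overlap other genes. Of 138 settings for counts and medians, 110 kept their value within the stated margins, 25 moved it and 3 turned its sign. The TR libraries held the fewest reads, and low TR values rest on few of them.

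With equal library medians, stability calls were 21 higher and 11 lower, translation calls 7 and 6, and TA against TR calls 19 and 11. The medians became 0.46, 0.12 and 0.26. Signs turned for 11, 18 and 14 of the 47 members, all to positive, among them the stability index of USP34 (0.45), USP4 (0.13), USP40 (0.46) and USP43 (0.056), and for the translation index of USP2 (0.26), USP27X (0.46), USP4 (0.47), USP43 (0.24), USP47 (0.14), USP7 (0.37) and USP9X (0.24). They turned for TA against TR of USP12 (0.91), USP16 (0.66), USP22 (1.10), USP32 (0.92), USP4 (0.60) and USP43 (0.29). Over the 43 fully expressed members the median stability index was -0.07 and that of TA against TR -0.78. With a pseudocount of 1, the median of TA against TR over the 47 members tested was -0.79. Without members with overlapping exons, 35 members gave medians of -0.031 for stability and -0.57 for TA against TR. With USP50, at 0 in RA and TA, left out, the median translation index was -0.41.

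Leaving out 1 library gave 4 to 8 higher and 13 to 22 lower stability calls with medians of -0.262 to -0.089. It gave 1 to 3 higher and 11 to 21 lower translation calls with medians of -0.64 to -0.21. For TA against TR it gave 5 to 7 higher and 22 to 28 lower calls with medians of -1.05 to -0.92. Signs turned within the ranges -0.18 to 0.12 (USP4), -0.54 to 0.049 (USP2) and -0.13 to 0.039 (USP27X) of the translation index, which include 0.044 for USP4 without RNA-seq replicate 3. For TA against TR they turned within -0.039 to 0.198 (USP9X), -0.55 to 0.015 (USP12) and -0.23 to 0.072 (USP22). Calls over all genes moved as well. Without 1 RNA-seq library, 36.2% to 38.3% of the members and 44.4% to 48.7% of all genes had lower stability calls. Lower translation calls there ran from 23.4% to 44.7% of the members and from 19.6% to 29.6% of all genes. The fits without 1 GRO-seq library gave the fewest stability calls, both for the members and over all genes.

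The paper describes log-phase cells divided among the assays, but does not state which libraries shared a culture. The labels number the replicates, and deviations of same-numbered libraries correlated at 0.15 for TR and RA, -0.56 for RA and TA and 0.02 for TR and TA over 10825 genes. The numbers were not taken as pairs, and whether libraries with other numbers shared a culture cannot be told from the sources. With the replicate block, lower translation calls went from 20 to 5 (10.6% of the members, beside 9.70% of all genes), and the translation index of USP4 was 0.044. The other counts of member calls stayed within 1.5 times. With the block crossed, higher and lower stability calls were 7 and 19 (14.9% and 40.4%, against 17.8% and 46.7% of all genes). Translation calls were 1 and 16 (2.13% and 34.0%, against 4.75% and 24.8%). For TA against TR they were 6 and 28 (12.8% and 59.6%, against 17.3% and 58.2%). The translation index of USP4 with the crossed block was 0.044.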

Other observations

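Other genes of the ubiquitin pathway were described from lists, on the deposited scale and by limma adjusted over all 14305 genes. Their counts stand beside shares of all genes of 19.2% higher and 48.0% lower in the stability index and 6.66% higher and 29.2% lower in the translation index. With equal library medians these shares were 35.4% and 33.7%, and 19.0% and 9.81%. A first list held deubiquitinases and related genes whose symbols lay outside the USP rule. Of the 32 tested, 4 had higher and 14 lower RA than TR, with a median stability index of -0.49. In the translation index 16 had lower TA than RA and none higher, also at an unadjusted limma p under 0.05, with a median of -0.70. Of those with lower RA, FAM63A reached 1 RPKM in TR alone, so its lower RA followed from the filter. With equal library medians the counts became 7 higher and 6 lower, and 5 higher and 4 lower. PSMD14, the deubiquitinase built into the proteasome lid, was highest in both, at 1.69 ± 0.21 (SE, adjusted p = 0.00018) and 0.48 ± 0.21 (SE, adjusted p = 0.11). OTUB2 was lowest in the stability index, at -2.26 ± 0.22 (SE, adjusted p = 4.6e-05), and YOD1 in the translation index, at -1.88 ± 0.26 (SE, adjusted p = 0.0035).

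Of 9 activating (E1) enzymes, 6 had higher and 1 lower RA than TR, and 2 had higher and 1 lower TA than RA, which became 7 and 1, and 5 and 1, with equal library medians. UBA1, which charges ubiquitin for most of the pathway, measured 43.2 and 33.8 RPKM in TR, 154, 119 and 123 in RA, and 216 and 218 in TA. NAE1, a subunit of the NEDD8-activating enzyme, had the highest translation index, at 0.85 ± 0.16 (SE, adjusted p = 0.0073). UBA7, which charges ISG15, was lowest in both indices and was the 1 lower call in each. It averaged 5.72 RPKM in TR, 0.66 in RA and 0.083 in TA. As UBA7 reached 1 RPKM in TR alone, its lower RA followed from the filter, and no test of it is given. Of 34 conjugating (E2) enzymes, 15 had higher and 3 lower RA than TR, and 1 had higher and 15 lower TA than RA, which became 25 and 2, and 3 and 4, with equal library medians. Their stability index was lowest for UBE2V1 and highest for UBE2E2, at 2.02 ± 0.20 (SE, adjusted p = 5.2e-05). UBE2V1 measured 17.5 and 22.9 RPKM in TR, 0.79, 0.66 and 0.72 in RA, and 0.17 and 0.26 in TA. It reached 1 RPKM in TR alone, so its lower RA followed from the filter, and no test of it is given. The translation index of the E2 enzymes ran from -1.73 ± 0.24 (SE, adjusted p = 0.0035) for UBE2Q2 to 0.60 ± 0.21 (SE, adjusted p = 0.055) for UBE2L3. Of the 4 ubiquitin precursor genes, 2 had higher RA than TR, and none passed the threshold in the translation index, where 1 had an unadjusted p under 0.05 and higher TA. With equal library medians 3 had higher RA than TR and 2 higher TA than RA. UBB was highest in both, at 1.80 ± 0.34 (SE, adjusted p = 0.0017) and 0.81 ± 0.34 (SE, adjusted p = 0.095), and RPS27A lowest, at -0.18 ± 0.38 (SE, adjusted p = 0.69) and -0.80 ± 0.38 (SE, adjusted p = 0.13).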
